A study of Mus musculus with 8 samples.

Results

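Glucose uptake, glycolysis, pyruvate oxidation and the tricarboxylic acid (TCA) cycle were followed through 44 named genes in RNA from the outflow tract (OFT) of mouse embryos at day 11.5 of gestation. The genes were chosen by name as members of these routes, and 44 of 44 were found among the 14608 genes of the expression table. The study asked how alleles of Mib1, which encodes a ubiquitin ligase needed for NOTCH signalling, and of Gata6, which encodes a transcription factor of the developing heart, act together in forming valves and septa. RNA sequencing compared 4 libraries from control OFT with 4 libraries from OFT labelled Mib1V943F/+ Gata6STOP/+. The second genotype is heterozygous at both genes, with a missense allele of Mib1 and a null allele of Gata6 on opposite chromosomes. The controls are labelled only as Control and WT. Each library is a pool, of 3 individuals by the labels, while the methods of the study describe the pools otherwise, so the number of embryos behind a library is uncertain. Both alleles are carried in every cell of the embryo, and the OFT is a mixture of cell types. The spread between libraries is therefore a spread between pools, and the p-values below measure only that.

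Glycolysis splits glucose into pyruvate in the cytosol. It begins with uptake by glucose transporters, continues through the phosphorylated hexoses, and ends with triose steps that return ATP. Pyruvate is then either reduced to lactate or carried into mitochondria, where the pyruvate dehydrogenase complex turns it into acetyl-CoA for the TCA cycle. The embryonic heart is known for a strong reliance on glycolysis at early stages, with mitochondrial oxidation gaining weight as cardiomyocytes mature, and several of the enzymes come in muscle-type and ubiquitous forms.

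The targeted genes were examined first. Gata6 measured 236, 279, 271 and 261 CPM (read counts relative to library size, scaled by the authors) in controls 1 to 4 against 213, 284, 276 and 224 CPM in the replicates labelled as mutant. The ranges overlapped, and the log2 fold change was -0.08 (95% interval -0.29 to 0.14, limma adjusted p = 0.752), or 0.00756 after removal of a trend with GC content. Mib1 measured 138, 107, 109.9 and 132 CPM in controls against 123, 137, 123 and 126 CPM in the mutant-labelled pools, again with overlap. Neither gene separated the groups, so in these libraries every direction rests on the labels. The V943F allele changes a residue, and its RNA level is no check of the label.

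Reads on the listed genes numbered 28212669, 10669420, 24833953 and 25963535 in controls 1 to 4. They numbered 21064242, 27194966, 30469165 and 26142501 in mutant-labelled pools 1 to 4, so control replicate 2 was the shallowest. Even there the least abundant member, Aldoc, had 129 reads, which limits the precision of that gene more than of the others. Some libraries stood apart from their group. Mutant-labelled replicate 2 differed from the other libraries of its group by a chi-square per gene of 30.8 to 33.7, against 9.38 to 12.4 among those other libraries. Xist, the RNA that marks the inactive X chromosome, measured 344, 127, 0.847 and 331 CPM in controls against 267, 1.99, 409 and 401 CPM in the mutant-labelled pools. It was near 0 in control replicate 3 and mutant-labelled replicate 2, so these pools differ from the rest in their make-up by sex, and counts of the 44 genes, of each step, of cardiomyocyte markers and of the respiratory chain are also given without them.

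In the mutant-labelled pools, the 44 genes were lower as a group, by little each. Of the 44 members, 44 had a log2 fold change below 0 (Aldoc turned above 0 after removal of a trend with GC content), against 49.6% of all 14608 genes. At an unadjusted limma p under 0.05, 26 members (59.1%) were lower, where 6.62% of all genes were, and 0 members were higher, where 5.45% of all genes were. For 20 members (45.5%) every mutant-labelled pool lay below every control library, which was so for 3.9% of all genes. The differences were small. The median log2 fold change was -0.19, a level 12.2% lower, against 0.00105 over all genes, and single members ran from -0.40 for Hk1 to -0.02 for Aldoc. No single gene passed the adjusted threshold of 0.05 in limma, among the members or among all genes (0% called, with 1763 of 14608 at an unadjusted p under 0.05). The smallest adjusted p of a member was 0.185, for Eno3, and the smallest of any gene was 0.124. The members' results are thus a description of a shared direction and not of single genes that passed the test.

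**Figure D1:**
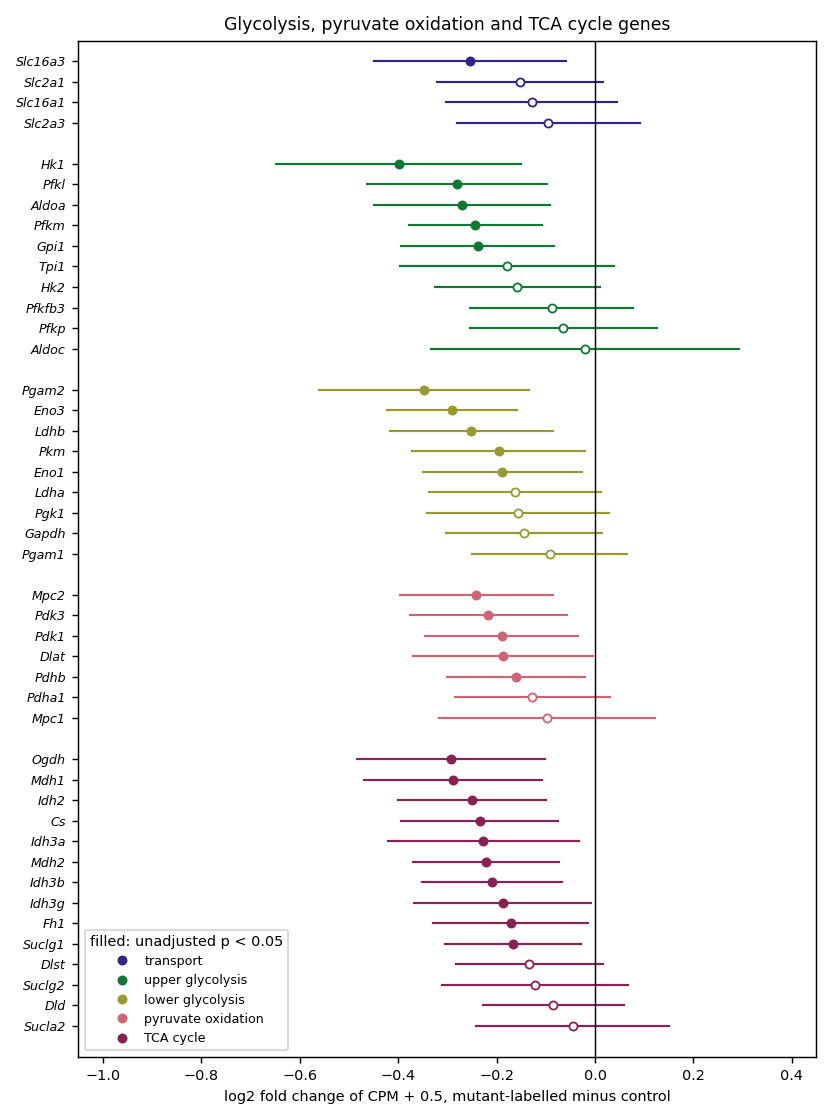
Log2 fold change of each of the 44 genes (mutant-labelled minus control, on log2 of CPM plus 0.5; horizontal axis), grouped by step and colour, with 95% confidence intervals from limma over 4 and 4 libraries. Points are filled where the unadjusted p was under 0.05, and all 44 lie left of 0, from -0.40 for Hk1 to -0.02 for Aldoc, whose sign turned after removal of a trend with GC content.

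Summed over the 44 genes, the level was 20123, 22101, 21222 and 19906 CPM in controls 1 to 4 and 17460.1, 18471, 18116 and 18589 CPM in mutant-labelled pools 1 to 4. The highest mutant-labelled pool was thus below the lowest control library, and the mutant-labelled mean was 87.1% of the control mean. Without mutant-labelled replicate 2, 29 members were lower at an unadjusted p under 0.05, where 5.46% of all genes were, and 28 did not overlap between groups, where 5.34% of all genes were lower without overlap. Without both pools lacking Xist, a comparison chosen after seeing the data, 24 were lower at that p, where 3.96% of all genes were, and the median was -0.19. In that comparison 31 did not overlap, where 6.85% of all genes were lower without overlap, with fewer libraries to overlap.

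Markers of cardiomyocytes had the same direction. Of 24 markers, 24 had a log2 fold change below 0, 23 were lower at an unadjusted p under 0.05 and 16 did not overlap. Over all genes these shares were 49.6%, 6.62% and, for lower without overlap, 3.9%. The median log2 fold change of the markers was -0.34, and single markers ran from -2.09 to -0.12. Without both pools lacking Xist, where 3.96% of all genes were lower at that p, 22 of these markers were. Their summed level was 40400.0, 38190.3, 38203 and 34399.6 CPM in controls 1 to 4. It was 29671, 27509, 29106 and 32117 CPM in mutant-labelled pools 1 to 4, with the lowest value in mutant-labelled replicate 2 and no overlap between groups. The most abundant marker, the myosin heavy chain gene Myh7, had 10362 ± 634 CPM in controls and 7915 ± 649.7 CPM in the mutant-labelled pools (SD, n = 4 each). The lowest p-values belonged to Myl2, Myl3, Tcap, Tnnc1 and Tnnt2, and the marker above an unadjusted p of 0.05 was Myl7 (1221 ± 162 and 1122 ± 136 CPM). The part of these markers in the members' result was not tested. In bulk RNA, fewer cells of a type and less RNA per cell cannot be told apart.

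Promoter sequence was read for members with an entry in the table of RefSeq promoters used (build GRCm38.p6), which held 42 of 44 and not Slc2a3 and Idh3a, with 61 transcription starts between them. The 250 bases before each start were searched on both strands for ACGTG or GCGTG, the core letters of a hypoxia-response element. These occurred before 45 of 61 starts of members (73.8%) and before 38.6% of all 32851 starts in the table of promoters. Counted by gene, 32 of 42 members (76.2%) held a match before at least 1 start, against 60.9% of the 10773 genes of the expression table that had an entry, and the members' windows were richer in G and C (median 61.2%, against 52.4% for all). The hexamer CACGTG, which contains ACGTG, was held by 6.02% of all windows and by 5 of 42 members (11.9%, against 9.83% of genes in the expression table). The letters GATAA, bound by GATA factors, were held by 22.6% of all windows and by 9 of 42 members (21.4%, against 17.5%). The letters AAGGTCA, bound by estrogen-related receptors, were held by 4.08% of all windows and by 1 of 42 members (2.38%, against 3.37%). CCAAT was held by 33.8% of all windows and by 21 of 42 members (against 40.7% of genes), and GGGCGG by 32.7% of all windows and by 29 of 42 members (69.0%, against 63.9%). For each step, the member with the lowest p among those whose window lies clear of every annotated gene is shown here to let the windows of members with a shared direction be compared, 5′ to 3′ on the strand of the gene, with matches to ACGTG or GCGTG and their complements in capitals. A match is a description of letters and not a known site.
Slc16a1 (chr3:104638414-104638663, strand +): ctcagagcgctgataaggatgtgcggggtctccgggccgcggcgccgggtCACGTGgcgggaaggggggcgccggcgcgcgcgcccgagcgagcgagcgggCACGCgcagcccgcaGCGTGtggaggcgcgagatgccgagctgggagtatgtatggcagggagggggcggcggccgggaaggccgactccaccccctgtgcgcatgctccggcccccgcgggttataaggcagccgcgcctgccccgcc
Hk1 (chr10:62379909-62380158, strand -): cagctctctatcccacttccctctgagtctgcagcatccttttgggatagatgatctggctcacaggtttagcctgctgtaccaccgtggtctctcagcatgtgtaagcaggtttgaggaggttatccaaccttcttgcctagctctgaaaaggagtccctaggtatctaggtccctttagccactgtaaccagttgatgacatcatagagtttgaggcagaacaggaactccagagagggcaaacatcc
Eno3 (chr11:70656926-70657175, strand +): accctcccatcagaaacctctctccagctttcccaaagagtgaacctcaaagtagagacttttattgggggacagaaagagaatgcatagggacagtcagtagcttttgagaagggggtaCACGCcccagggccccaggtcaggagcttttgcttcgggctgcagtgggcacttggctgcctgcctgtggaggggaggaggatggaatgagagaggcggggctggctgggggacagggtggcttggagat
Pdk1 (chr2:71872974-71873223, strand +): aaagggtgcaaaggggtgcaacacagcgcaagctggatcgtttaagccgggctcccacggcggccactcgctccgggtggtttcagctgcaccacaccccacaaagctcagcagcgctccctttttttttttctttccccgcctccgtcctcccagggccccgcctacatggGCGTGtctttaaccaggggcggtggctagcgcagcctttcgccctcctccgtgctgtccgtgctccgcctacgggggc
Ogdh (chr11:6291347-6291596, strand +): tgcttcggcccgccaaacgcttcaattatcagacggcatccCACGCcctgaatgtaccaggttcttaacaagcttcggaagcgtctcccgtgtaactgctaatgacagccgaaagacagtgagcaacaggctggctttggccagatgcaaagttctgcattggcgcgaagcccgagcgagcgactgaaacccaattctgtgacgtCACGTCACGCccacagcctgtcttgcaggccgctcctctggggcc
The lactate carrier gene Slc16a1 held 4 matches in this window, with its CACGTG counted once on each strand, the oxoglutarate dehydrogenase gene Ogdh held 3, and Eno3 and Pdk1 held 1 each. For Ogdh the window of the most upstream start is shown. The window of Hk1 shown held 0, while that of its other start, which overlaps exons and is not printed, held 3. Absence says only that these letters are not in these 250 bases.

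Transport across the plasma membrane was represented by 4 genes (median log2 fold change -0.14). At an unadjusted p under 0.05, 1 was lower, where 6.62% of all genes were. That count was 3 without control replicate 3, where 4.65% of all genes were lower, and 3 without both pools lacking Xist, where 3.96% were. Slc16a3, which encodes the monocarboxylate carrier that exports lactate from glycolytic cells (chromosome 11, 120948480 to 120960868, strand + in GRCm38), measured 299.9, 399, 308 and 322 CPM in controls 1 to 4. In mutant-labelled pools 1 to 4 it stood at 270.4, 259, 294 and 284 CPM. No library overlapped between groups, and the log2 fold change was -0.26 (SE 0.0896, limma adjusted p = 0.331), with control replicate 2 the highest of all. Without control replicate 2 the log2 fold change of Slc16a3 was -0.16, the smallest of a range from -0.30 to -0.16 without single libraries, and it was -0.16 after removal of a trend with GC content. The other carriers overlapped between groups. Slc2a1, the main glucose transporter of embryonic tissue, had 769.8 ± 74.6 CPM in controls and 691 ± 26.2 in mutant-labelled pools (SD, n = 4), and Slc2a3, a glucose transporter of high affinity, had 117 ± 13.1 and 109 ± 7.09. Slc16a1, a carrier that moves lactate and pyruvate in either direction, had 113 ± 10.5 and 103 ± 7.19 CPM. Their log2 fold changes lay between -0.15 and -0.10. With the GC trend removed, the log2 fold change of Slc16a1 was -0.23, at an unadjusted p under 0.05, and the log2 fold change of Slc2a1 was -0.10. With 1 library left out, Slc2a1 ran from -0.20 to -0.09, Slc2a3 from -0.16 to -0.04 and Slc16a1 from -0.18 to -0.08. The smallest values came without control replicate 2 for Slc2a1 and Slc2a3 and without control replicate 1 for Slc16a1.

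Upper glycolysis runs from glucose to triose phosphates and was represented by 10 genes (median log2 fold change -0.21). Of these, 5 were lower at an unadjusted p under 0.05 with no overlap between groups. Over all genes, 6.62% were lower at that p and 3.9% were lower without overlap. The count lower was 6 without both pools lacking Xist, where 3.96% of all genes were. Hexokinase 1, from Hk1, traps glucose as its phosphate. Hk1 measured 454, 465, 424 and 393 CPM in controls against 343, 251, 362 and 374 CPM in mutant-labelled pools 1 to 4. The log2 fold change of -0.40 (SE 0.115, limma adjusted p = 0.259) was the largest of any member, and mutant-labelled replicate 2 was lowest. Without single libraries it ran from -0.46 to -0.27, and without mutant-labelled replicate 2 it was no longer the largest. Gpi1 encodes the isomerase that turns glucose phosphate into fructose phosphate. It measured 851, 974, 909 and 823 CPM in controls against 731, 743, 754 and 779.9 CPM in mutant-labelled pools, which lay close together below all controls (log2 fold change -0.24, limma adjusted p = 0.270).

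Phosphofructokinase, the committed step, has 3 subunit genes. Pfkm, for the muscle-type subunit (chromosome 15, 98092589 to 98132451, strand +), measured 138, 137, 152 and 136 CPM in controls against 115, 124, 116 and 119 CPM in mutant-labelled pools. It had the lowest p of upper glycolysis, with a log2 fold change of -0.24 (SE 0.0620, limma adjusted p = 0.234). Pfkl, for the liver-type subunit, measured 373, 441, 411 and 377 CPM in controls against 305, 299, 363 and 353 CPM in mutant-labelled pools, a log2 fold change of -0.28 (limma adjusted p = 0.270). Both were lower in every mutant-labelled pool than in any control. Pfkp, for the platelet-type subunit, overlapped, with 372 ± 13.3 CPM in controls and 358 ± 46.8 in mutant-labelled pools (SD, n = 4), a log2 fold change of -0.06 whose interval ran from -0.25 to 0.13. Pfkp was 0.00642 above 0 without mutant-labelled replicate 1, so its direction rests on that library.

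Aldolase A, from Aldoa, splits the hexose and is the form typical of muscle. Aldoa measured 1640.0, 2035, 1838 and 1702 CPM in controls 1 to 4 against 1432, 1501, 1513 and 1515 CPM in mutant-labelled pools 1 to 4. All mutant-labelled values were below all controls (log2 fold change -0.27, limma adjusted p = 0.273), but after quantile normalization the log2 fold change of Aldoa was -0.14, no longer at an unadjusted p under 0.05. Aldoc, for the brain-type aldolase, was the least abundant member, with 10.3 ± 1.99 CPM in controls and 10.03 ± 1.12 in mutant-labelled pools (SD, n = 4). Its log2 fold change of -0.02 turned above 0 without control replicate 2, 3 or 4 or mutant-labelled replicate 1 (0.0666, 0.00452, 0.00557 and 0.0197) and after removal of a trend with GC content (0.0181), so no direction can be given for it. Hk2, for the second hexokinase, had 168 ± 6.48 and 151 ± 15.8 CPM, and Tpi1, for the isomerase that balances the trioses, had 1084 ± 114 and 958 ± 114 CPM. Pfkfb3, whose enzyme makes the activator of phosphofructokinase, had 36.6 ± 0.805 and 34.5 ± 2.77 CPM. These genes overlapped between groups, with log2 fold changes of -0.16, -0.18 and -0.09. With 1 library left out, Hk2 ran from -0.22 to -0.10, Tpi1 from -0.25 to -0.12 and Pfkfb3 from -0.12 to -0.03. The smallest values came without mutant-labelled replicate 2 for Hk2 and without mutant-labelled replicate 1 for Tpi1 and Pfkfb3.

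Lower glycolysis, from triose phosphate to pyruvate and lactate, was represented by 9 genes (median log2 fold change -0.19). Of these, 5 were lower at an unadjusted p under 0.05 and 4 did not overlap. Over all genes, 6.62% were lower at that p and 3.9% were lower without overlap. The count lower rested on single libraries. It was 8 without mutant-labelled replicate 2, where 5.46% of all genes were lower. It was 3 without control replicate 2, control replicate 3 or mutant-labelled replicate 1 (4.59%, 4.65% and 6.46% of all genes). It was also 3 without both pools lacking Xist (3.96% of all genes). Eno3 encodes the muscle-type enolase (chromosome 11, 70657202 to 70662513, strand +) and had the lowest p of all members. It measured 179, 186, 181 and 170.0 CPM in controls 1 to 4 against 143, 139, 153 and 151 CPM in mutant-labelled pools 1 to 4. The groups were 17.4 CPM apart at their nearest libraries, with a log2 fold change of -0.29 (SE 0.0606, 95% interval -0.42 to -0.16, limma adjusted p = 0.185). Without single libraries the log2 fold change ran from -0.32 to -0.27. Eno1, for the ubiquitous enolase, measured 1697, 1966, 1835 and 1707 CPM in controls against 1562, 1573, 1570.3 and 1606 CPM in mutant-labelled pools. Its log2 fold change was -0.19 (limma adjusted p = 0.374), again with no overlap. After quantile normalization the log2 fold change of Eno1 was -0.07, no longer at an unadjusted p under 0.05.

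Pgam2, for the muscle-type phosphoglycerate mutase, measured 147, 164, 158 and 132 CPM in controls against 129.7, 96.8, 123 and 124 CPM in mutant-labelled pools. Every mutant-labelled value was below every control, by little between control replicate 4 and mutant-labelled replicate 1, and the log2 fold change was -0.35 (SE 0.0981, limma adjusted p = 0.258). Pkm, for the pyruvate kinase that yields pyruvate and ATP, measured 1825, 2226, 2021 and 1911 CPM in controls against 1668, 1722, 1791 and 1772 CPM in mutant-labelled pools. Its groups did not overlap either (log2 fold change -0.20, limma adjusted p = 0.389). The log2 fold change of Pkm was -0.09 after quantile normalization and -0.13 with the GC trend removed, neither at an unadjusted p under 0.05. Ldhb encodes the lactate dehydrogenase subunit typical of heart. It measured 235, 242, 275 and 221 CPM in controls against 197, 221, 200.4 and 197 CPM in mutant-labelled pools, where replicate 2 met the lowest control (log2 fold change -0.25, limma adjusted p = 0.273).

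The remaining genes of lower glycolysis overlapped between groups. Gapdh, for the dehydrogenase that reduces NAD, had 905 ± 68.1 CPM in controls and 817 ± 32.7 in mutant-labelled pools (SD, n = 4). Pgk1, for the kinase of the first ATP-yielding step, had 1286 ± 81.9 and 1155 ± 110.0 CPM, and Pgam1, for the ubiquitous mutase, had 733 ± 51.1 and 687 ± 32.2 CPM. Ldha, for the subunit typical of tissues that make lactate, had 1820.0 ± 121 and 1626 ± 103 CPM. Their log2 fold changes were between -0.16 and -0.09, with none at an unadjusted p under 0.05. These sizes depended on the scaling. After quantile normalization the log2 fold change of Ldha was -0.08, the log2 fold change of Pgk1 was -0.08 and the log2 fold change of Pgam1 was -0.06. With the GC trend removed the log2 fold change of Gapdh was -0.08 and the log2 fold change of Pgam1 was -0.05.

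Pyruvate oxidation was represented by 7 genes, of which 5 were lower at an unadjusted p under 0.05 and 4 did not overlap (median log2 fold change -0.19). Over all genes, 6.62% were lower at that p and 3.9% were lower without overlap. The count lower was 3 without control replicate 1 or mutant-labelled replicate 3 (6.28% and 5.77% of all genes). It was also 3 without both pools lacking Xist (3.96% of all genes). Mpc2 encodes a subunit of the carrier that brings pyruvate into mitochondria (chromosome 1, 165460637 to 165481214, strand +). It measured 35.02, 36.8, 35.9 and 33.3 CPM in controls 1 to 4 against 29.9, 28.3, 29.3 and 31.5 CPM in mutant-labelled pools 1 to 4. It had the lowest p of this step (log2 fold change -0.24, SE 0.0714, limma adjusted p = 0.270), and its partner subunit Mpc1 had 23.2 ± 0.839 and 21.8 ± 2.99 CPM with overlap. The pyruvate dehydrogenase kinases switch the complex off by phosphorylation. Pdk1 measured 243, 233, 243 and 246 CPM in controls against 187, 232, 216 and 213 CPM in mutant-labelled pools, and Pdk3 measured 110.5, 97.1, 92.1 and 96.5 CPM in controls against 85.3, 85.7, 78.7 and 90.5 CPM in mutant-labelled pools. Neither kinase gene overlapped between groups, although for Pdk1 the highest mutant-labelled pool lay 0.687 CPM under the lowest control (log2 fold changes -0.19 and -0.22).

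Among subunits of the complex, Pdhb, for the beta subunit of its first enzyme, measured 206, 192, 209 and 183 CPM in controls against 181, 179.8, 167 and 177 CPM in mutant-labelled pools, without overlap (log2 fold change -0.16, limma adjusted p = 0.378). Dlat, for the acetyltransferase core, measured 147, 129, 126 and 127 CPM in controls against 123, 102, 111.8 and 129 CPM in mutant-labelled pools. Here control replicate 1 was far above the other controls, and mutant-labelled replicate 4 lay inside the control range (log2 fold change -0.19, limma adjusted p = 0.406). Pdha1, for the X-linked alpha subunit, had 275 ± 18.6 and 251 ± 17.5 CPM with overlap (log2 fold change -0.13, or -0.18 with the GC trend removed and then at an unadjusted p under 0.05).

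The TCA cycle was represented by 14 genes, counting the NADP-dependent Idh2 and the cytosolic Mdh1 (median log2 fold change -0.20). Of these 14, 10 were lower at an unadjusted p under 0.05 and 6 did not overlap, with Idh2 and Mdh1 in both counts. Over all genes, 6.62% were lower at that p and 3.9% were lower without overlap. The count lower was 6 without mutant-labelled replicate 3, where 5.77% of all genes were lower. It was 9 without both pools lacking Xist, where 3.96% were. Cs, for the synthase that joins acetyl-CoA to oxaloacetate, measured 572, 547, 524 and 508 CPM in controls against 486, 422, 431 and 493 CPM in mutant-labelled pools, with no overlap (log2 fold change -0.23, limma adjusted p = 0.290). Idh2 encodes the NADP-dependent mitochondrial isocitrate dehydrogenase (chromosome 7, 80094846 to 80115392, strand -) and had the lowest p of the cycle. It measured 645, 647, 694 and 597 CPM in controls 1 to 4 against 516, 581, 534 and 539 CPM in mutant-labelled pools 1 to 4. The highest mutant-labelled pool was below the lowest control (log2 fold change -0.25, SE 0.0693, limma adjusted p = 0.255).

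The NAD-dependent isocitrate dehydrogenase has 3 subunit genes, and all were lower at an unadjusted p under 0.05. Idh3a, for the catalytic subunit, measured 253, 224, 207 and 219 CPM in controls against 208, 174, 175 and 216 CPM in mutant-labelled pools. Idh3b, for a regulatory subunit, measured 165, 164, 174 and 147 CPM in controls against 139.9, 141, 134.9 and 144 CPM in mutant-labelled pools. X-linked Idh3g, for another regulatory subunit, measured 137, 142, 155 and 134 CPM in controls against 113, 145, 124 and 119 CPM in mutant-labelled pools. Of these, only Idh3b had groups that did not overlap, and the log2 fold changes were -0.23, -0.21 and -0.19. For Idh3g, mutant-labelled replicate 2 was within the control range and the other 3 were below it.

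The oxoglutarate dehydrogenase complex makes succinyl-CoA. Ogdh, for its first enzyme, measured 422, 409.9, 388 and 344 CPM in controls against 329.8, 277, 317 and 354 CPM in mutant-labelled pools. Its log2 fold change was -0.29 (SE 0.0879, limma adjusted p = 0.270), with overlap through control replicate 4 and mutant-labelled replicate 4. Dlst, for its succinyltransferase, had 284 ± 19.9 CPM in controls and 259 ± 12.5 in mutant-labelled pools (SD, n = 4), and Dld, for the dihydrolipoyl dehydrogenase it shares with the pyruvate complex, had 188 ± 12.1 and 177 ± 8.06 CPM. Suclg1, for the common subunit of succinyl-CoA ligase, measured 126, 122, 131 and 114 CPM in controls against 111, 108, 105 and 114 CPM in mutant-labelled pools. Its groups met almost exactly between control replicate 4 and mutant-labelled replicate 4 without crossing (log2 fold change -0.17). The subunits that set the nucleotide used by the ligase overlapped: Sucla2 had 130.1 ± 15.8 and 125 ± 8.28 CPM, and Suclg2 had 89.9 ± 9.87 and 82.5 ± 6.69 CPM. Sucla2 was 0.0029 above 0 without control replicate 1, so its direction rests on that library. With the GC trend removed the log2 fold change of Sucla2 was -0.14, not at an unadjusted p under 0.05. In the same fit Dlst, Dld and Suclg2 were at an unadjusted p under 0.05. There the log2 fold change of Dlst was -0.14, that of Dld was -0.21 and that of Suclg2 was -0.17.

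The closing reactions of the cycle followed, with the cytosolic Mdh1 beside them. Fh1, for fumarase, measured 166, 160.0, 183 and 159 CPM in controls against 145, 165, 142 and 141 CPM in mutant-labelled pools, where replicate 2 was far above the other 3 and within the control range (log2 fold change -0.17, or -0.15 after quantile normalization and then not at an unadjusted p under 0.05). Mdh1, for the cytosolic malate dehydrogenase of the malate-aspartate shuttle, measured 578, 545, 665 and 510.5 CPM in controls against 459, 475, 445 and 495 CPM in mutant-labelled pools. Mdh2, for the mitochondrial malate dehydrogenase, measured 385, 419, 392 and 357 CPM in controls against 341, 313, 326 and 349.9 CPM in mutant-labelled pools. Both malate dehydrogenase genes were lower in every mutant-labelled pool than in any control, with log2 fold changes of -0.29 and -0.22 (limma adjusted p = 0.260 and 0.281).

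**Figure D2:**
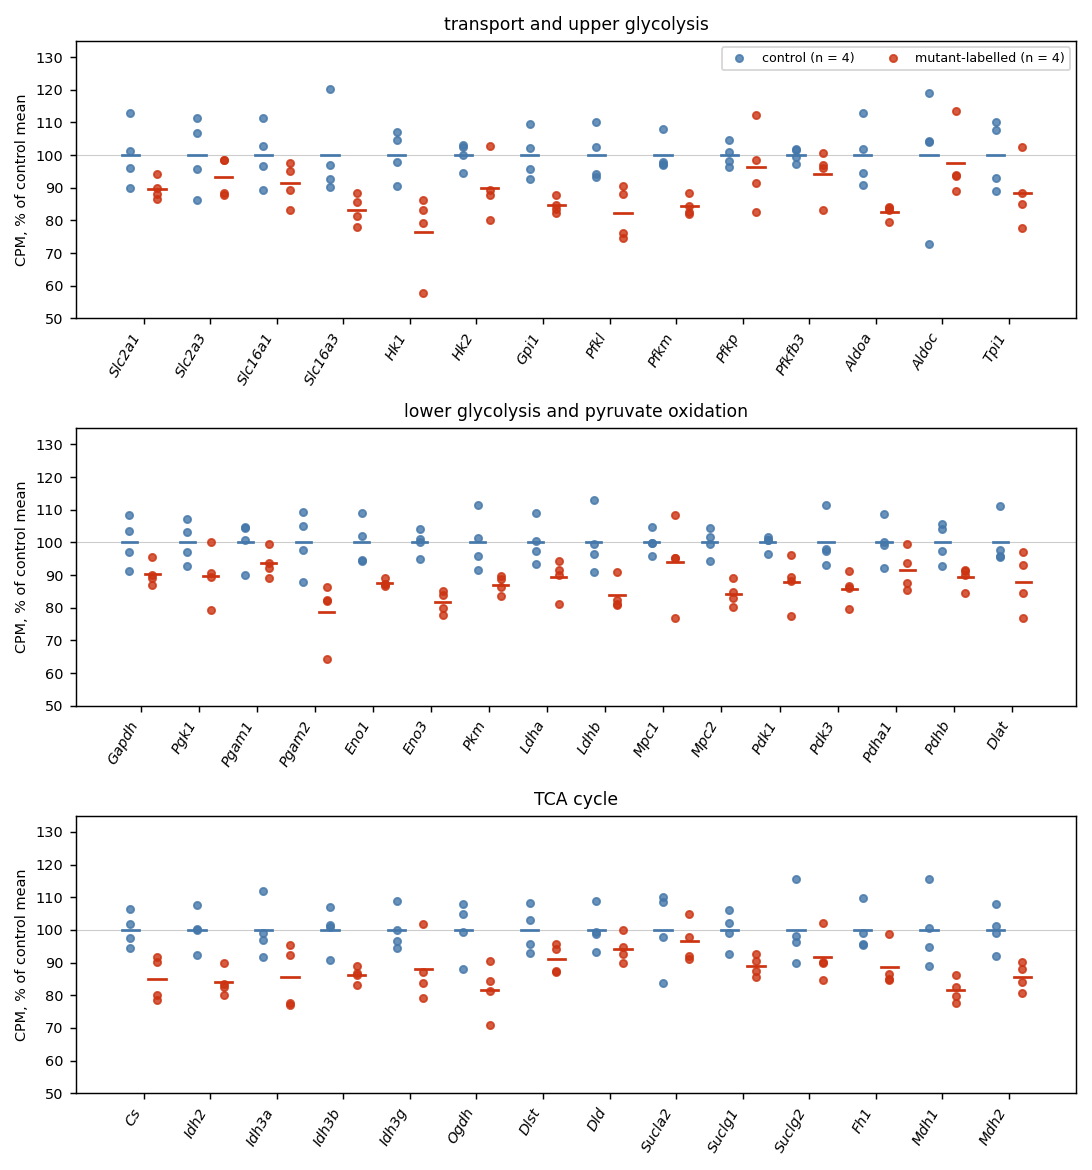
Level of each gene in every library as a percentage of its control mean (vertical axis, which starts at 50%), with 4 control libraries in blue and 4 mutant-labelled pools in red; short lines are group means. Red points lie mostly below blue, with no overlap for 20 of 44 genes, and the lowest point belongs to Hk1 in mutant-labelled replicate 2.

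Per kilobase of transcript (median length of the protein-coding transcripts of a gene), the most abundant members in controls were Aldoa (1194 CPM per kb), Ldha (1146), Eno1 (917), Tpi1 (899.9) and Pkm (892). On this scale the highest gene of the TCA cycle was Idh2, at 604 CPM per kb. The scale also orders the forms of each enzyme: Eno1 exceeded Eno3 (123), Pgam1 (413) exceeded Pgam2 (179), and Ldha exceeded Ldhb (187). For these 3 enzymes the form typical of muscle or heart was the less abundant one, with the levels of Eno1, Pgam1, Ldha and Ldhb uncertain through shared sequence. Aldolase ran the other way, since Aldoc had 4.58 CPM per kb.

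For 10 pairs of genes that serve the same step, the log2 ratio was taken in each library. The same constant was added to each CPM value as for the fold changes. The scaling of a library cancels from such a ratio except through that constant, which weighs most on Aldoc, the least abundant member. The ratio of Aldoc to Aldoa was -7.68, -7.32, -7.36 and -7.25 in controls 1 to 4 and -7.21, -6.95, -7.22 and -7.22 in mutant-labelled pools 1 to 4. It was higher in every mutant-labelled pool, by 0.25 (exact permutation p = 0.0286, the smallest that 4 against 4 can give, and 0.214 adjusted over 10 pairs). No pair passed the adjusted threshold in the exact test. Without control 1, mutant-labelled replicate 2 or mutant-labelled replicate 4, 0 pairs had an unadjusted exact p under 0.05, and without control 4 there were 2. Relative to the other form, the muscle-type form differed by -0.25 for Pgam2 to Pgam1 (exact p = 0.114), by -0.10 for Eno3 to Eno1 (exact p = 0.0571) and by -0.18 for Pfkm to Pfkp (exact p = 0.0857). The other differences were -0.22 for Pfkl to Pfkp, 0.24 for Hk2 to Hk1, -0.09 for Ldhb to Ldha, 0.06 for Slc2a3 to Slc2a1, 0.08 for Sucla2 to Suclg2 and -0.03 for Pdk3 to Pdk1. Their groups overlapped, with exact p-values from 0.0857 to 0.743.

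**Figure D3:**
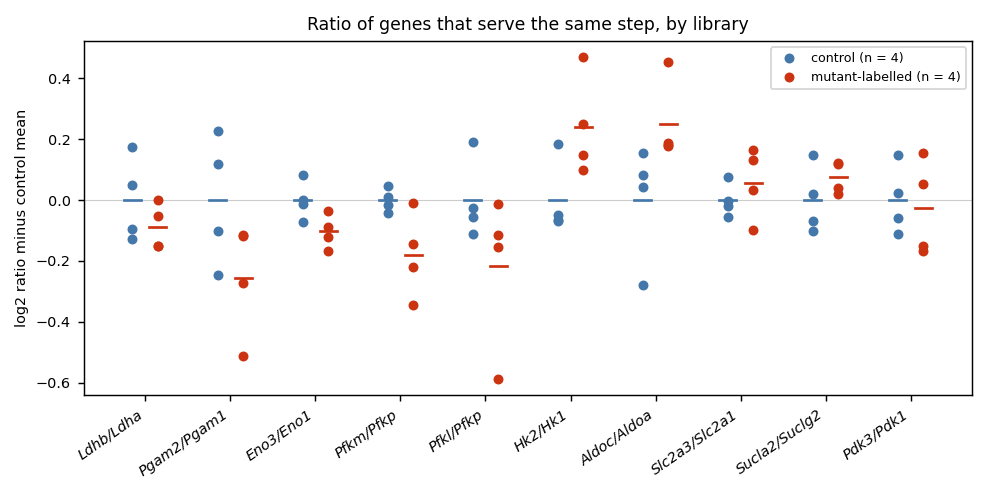
Log2 ratio of paired genes in every library minus the control mean of that pair (vertical axis), with controls in blue and mutant-labelled pools in red; short lines are group means of 4 libraries. Only the ratio of Aldoc to Aldoa separates the groups, by 0.25.

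Genes of neighbouring routes were counted in the same way, and differences between lists were not tested. Of 33 other genes of pyruvate metabolism, the TCA cycle and the linked shuttles, 32 were in the table, and 12 were lower and 0 higher at an unadjusted p under 0.05 (37.5%, median log2 fold change -0.14). They include succinate dehydrogenase, which links the cycle to the respiratory chain. Its subunit gene Sdhc had 176 ± 7.75 CPM in controls and 146 ± 6.003 in mutant-labelled pools (SD, n = 4), Sdhb had 189 ± 7.85 and 160.5 ± 5.54, and Sdha had 407 ± 22.8 and 343 ± 16.1. Got1, for the cytosolic aspartate aminotransferase, had 126 ± 9.98 and 103 ± 5.28 CPM. These 4 genes did not overlap between groups. Sdhd, for another subunit of succinate dehydrogenase, had 185 ± 16.9 and 167 ± 7.47 CPM, with overlap and not at an unadjusted p under 0.05. For the respiratory chain and ATP synthase, 91 genes were taken by the start of their symbol. The starts were Nduf followed by a, b, c, s or v, Uqcr, Cox4 to Cox8, and Atp5, which also admit Ndufaf assembly factors. Of these 91 genes, 51 were lower and 0 higher at that p, and 36 did not overlap (median log2 fold change -0.21). Atp5k, Ndufv1, Atp5g1, Cox4i1 and Atp5g3 led by p. Over all genes, 6.62% were lower at that p and 3.9% were lower without overlap. The count lower of the respiratory chain was 38 without both pools lacking Xist, where 3.96% of all genes were.

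Of 35 other genes of glycolysis and its branches, 25 were in the table, and 3 were lower and 2 higher at an unadjusted p under 0.05 (median log2 fold change -0.01). Lower were Pgm1 (-0.22), a phosphoglucomutase, and the glucose transporter genes Slc2a4 (-0.21) and Slc2a12 (-0.34). Higher were Pgm2 (0.21), another phosphoglucomutase, and Adpgk (0.15), an ADP-dependent glucokinase. Thus 3 of 25 were lower, against 6.62% of all genes. Of 7 genes of the pentose phosphate pathway, 0 were lower and 0 higher at an unadjusted limma p under 0.05 (median log2 fold change -0.03). Of 21 genes of the response to hypoxia, 2 were lower and 0 higher (median 0.01): Epas1, for a hypoxia-inducible factor, at -0.22, and Vegfa, for an angiogenic growth factor, at -0.17. Leaving out 1 library moved these small counts: the number of lower hypoxia genes was 4 without control 1, 0 without mutant-labelled replicate 1, and 1 without control 2, 3 or 4 or mutant-labelled replicate 2. The number of lower genes among the other glycolysis genes was 5 without control 1 and 1 without control 2.

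**Figure D4:**
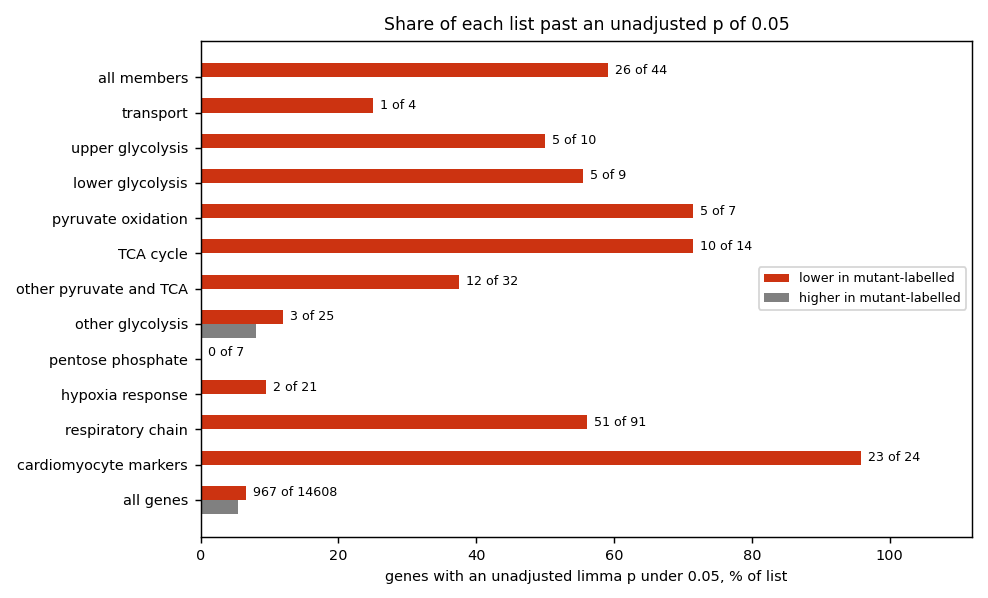
Share of each gene list, in percent (horizontal axis), that was lower (red) or higher (grey) in the mutant-labelled pools at an unadjusted limma p under 0.05, with the number lower and the number of genes in the table. The members stand at 26 of 44 and cardiomyocyte markers at 23 of 24, against 967 of 14608 over all genes.

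Markers of other cell types were counted in the same way. Of 6 smooth muscle markers 2 were lower (Myocd and Smtn) and 1 higher (Myh11) at an unadjusted limma p under 0.05. Of 8 endothelial markers 1 was lower (Emcn, -0.57) and 0 higher. Over all genes, 6.62% were lower and 5.45% higher at that p. At the same p, 0 of 8 markers of cushion mesenchyme, 0 of 6 of macrophages, 0 of 5 of epicardium, 0 of 8 of erythroid cells and 0 of 5 sex-linked genes were lower or higher. Erythroid markers varied widely between libraries, with a summed level of 61.9, 126, 109.6 and 102% of the control mean in controls and 162, 187, 105 and 52.8% in mutant-labelled pools. Among 4 listed neural markers, Elavl4 was higher at that p (0.65), while 2 had a log2 fold change below 0 (lowest -0.43), and the median was 0.05. For skeletal muscle, Myod1, Myf5, Myog, Mymk, Myh3 and Pax7 were not among the listed genes, and the remaining marker Tnnt3, with 2.72 ± 0.312 and 1.97 ± 0.4498 CPM, was lower at that p. For epithelium, Epcam, Cdh1 and Foxa2 were not listed, and Krt8 and Krt18 were neither lower nor higher at that p. The part of these cell types in the members' result was not tested.

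**Figure D5:**
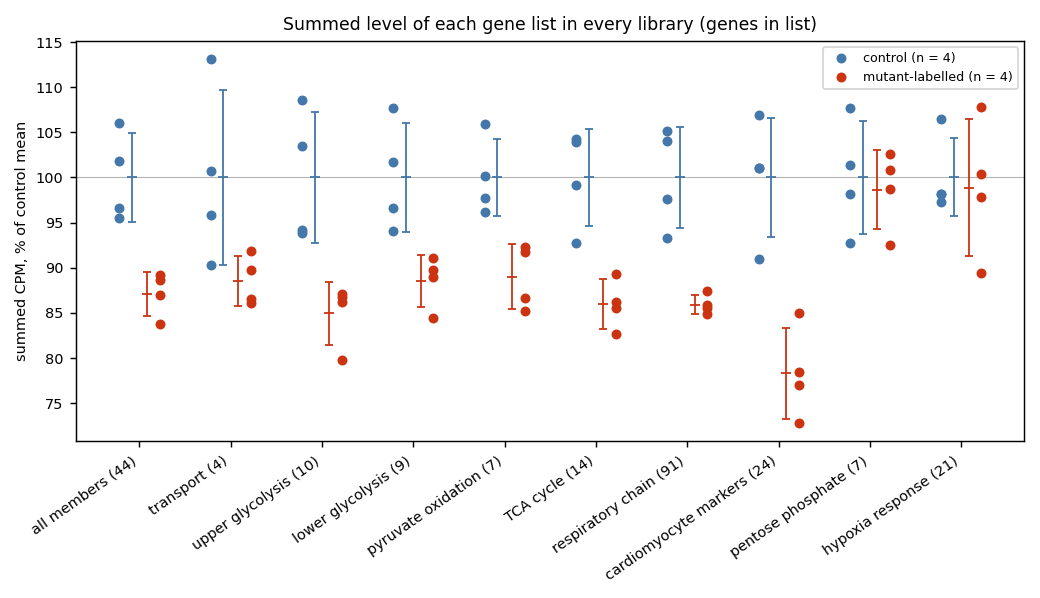
Summed level of each gene list in every library as a percentage of its control mean (vertical axis), with controls in blue and mutant-labelled pools in red; bars are mean ± SD of 4 libraries and numbers in brackets are genes in the list. The members stand at 83.8% to 89.2% in the mutant-labelled pools and the cardiomyocyte markers at 72.8% to 85.0%. The transport, pentose phosphate and hypoxia lists overlap between groups.

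By step, the summed level in mutant-labelled pools 1 to 4 was 86.0, 86.6, 89.8 and 91.8% of the control mean for transport and 79.8, 86.7, 86.2 and 87.0% for upper glycolysis. It was 84.4, 91.0, 89.0 and 89.7% for lower glycolysis, 86.6, 92.3, 85.2 and 91.8% for pyruvate oxidation and 86.3, 85.5, 82.7 and 89.4% for the TCA cycle. Transport overlapped between groups, since control replicate 3 was at 90.3%, and in the other 4 steps every mutant-labelled pool was below every control. The lowest mutant-labelled pool was replicate 1 for transport and for upper and lower glycolysis, and replicate 3 for pyruvate oxidation and the TCA cycle. For the 44 genes together the lowest was replicate 1 and for the cardiomyocyte markers replicate 2. Replicate 4 was the highest mutant-labelled pool for both, and control replicate 4 the lowest control for both. The highest control was replicate 2 for the 44 genes and replicate 1 for the cardiomyocyte markers. How far these levels go together was not tested.

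Some members share sequence with other genes, so that short reads may be divided between them. Of the 44, 28 had no stretch of 60 bases in common with another annotated transcript. Of those 28, 19 were lower at an unadjusted p under 0.05, where 6.62% of all genes were. Another 12 shared over 5% of such stretches, above all Gapdh (77.4%), Pgk1 (67.8%), Eno1 (55.1%) and Pgam1 (41.1%), and 6 of these 12 were lower at that p. Values of those 12 genes, which also include Gpi1, Aldoa, Pkm, Ldha, Ldhb, Mpc1, Pdhb and Suclg2, are uncertain to that extent. Gapdh shared such stretches with 164 other annotated genes, of which 4 were in the expression table, Eno1 with 8, of which 1 was, and Gpi1 with 18, of which 14 were. Leaving out each library in turn, 17 members kept an unadjusted p under 0.05 in all 8 fits, where 3.01% of all genes were lower in all 8, and 41 of 44 kept a log2 fold change below 0.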

How the data were processed

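Polyadenylated RNA of OFT pools was sequenced from a strand-specific library. By the submitters' notes and the methods of the study, the authors ran cutadapt, RSEM over GRCm38 and edgeR, and kept expressed genes; the deposited values are CPM scaled by TMM, with 14608 genes and 8 columns. All genes in the table reached 1 CPM in 4 or more libraries. Low values were whole multiples of 1 step in every column (100% within 0.01 of a whole read), which gave the depths. Count tests were planned in case whole reads could be used. They were not run: an automatic check takes the smallest value of a column as 1 read, and in 5 of 8 columns that value is several reads, so it did not accept the values as whole reads. This is a limit of that check and not a fault seen in the values.

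Differences were fitted over all 14608 genes with limma 3.58.1 in R 4.3.3 (lmFit and eBayes with a trend, two-sided, Benjamini-Hochberg) on log2(CPM + 0.5). Fold changes are on that scale. Single ratios had a two-sided exact permutation test over 70 relabellings, whose smallest p is 0.0286. The fit was tested on simulated data, with planted log2 effects larger than that of any member. That test does not cover effects as small as those of the members. The members and lists were chosen with earlier results of these data known. Values in every library are given for members at an unadjusted p under 0.05 and for the lowest p of each step. Other members are given by group means. At most 5 genes of another list are named by p, and Sdhd was added as a subunit gene after its values were seen. Myh7 (the most abundant marker), Myl7 and the other markers named singly were chosen after their values were seen. Pairs of genes were counted at an exact p under 0.05, and a paired sign-flip test served for the block; both were chosen after seeing the data, in place of a first count of pairs without overlap (1, and 1 to 3 with 1 library left out). Alternatives were the pseudocount, a filter at 5 CPM, other scalings, a GC correction, a block on replicate number and leaving out libraries. GENCODE M21 gave positions and lengths for 14600 genes.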

Additional observations from a re-analysis of the deposited data

Results flagged for a closer look

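Each of 122 groups of 4 values (a gene, ratio or list in 1 genotype) was examined for a library far from the other 3, and 7 groups held one, where chance gives about 1 in 20 groups. Pfkm was far above the other controls in control replicate 3 (152 CPM), and Dlat in control replicate 1 (147 CPM). Ldhb and Fh1 were far above the other mutant-labelled libraries in replicate 2 (221 and 165 CPM). The log2 ratio of Hk2 to Hk1 was far above the other controls in control replicate 4 (-1.18), and that of Aldoc to Aldoa far above the other mutant-labelled libraries in replicate 2 (-6.95). The summed level of the hypoxia genes was far above the other controls in control replicate 4 (2129.5 CPM).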

How the results depend on the processing

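The count of 26 members lower at an unadjusted p under 0.05 ran from 22 to 30 over other pseudocounts, filters, scalings and GC correction. In those fits 6.28% to 7.31% of all genes fitted were lower. With 1 library left out the count ran from 19 to 29, where 4.59% to 7.5% of all genes were lower over the 8 fits. It was 19 without mutant-labelled replicate 3, where 5.77% of all genes were lower. The count higher stayed at 0 in all of these fits. The median log2 fold change was between -0.15 (quantile normalization) and -0.21 (without control replicate 4). No member passed an adjusted p of 0.05 in limma in any of these fits. With a replicate block, 23 members were lower at an unadjusted p under 0.05, where 5.1% of all genes were. They were the 26 without Pdhb, Suclg1 and Fh1. In the paired exact test 0 isoform ratios passed, but that test cannot go below 0.125, so that 0 was fixed by the design. Same-numbered libraries did not deviate together (correlations -0.271 to 0.0499), so they share only a number. The count of isoform ratios at an exact p under 0.05, a measure chosen after seeing the data, was 1, and 0 after removal of a GC trend, and ran from 0 to 2 with 1 library left out; the cause was not tested. Without both pools lacking Xist it was 0, as it had to be, since 3 against 3 cannot go below 0.1. That comparison was chosen after seeing the data, as were limma without a trend and with robust variance. These gave 22 and 27 members lower, where 6.02% and 6.48% of all genes were. Without both pools the count with no overlap was 31, where 6.85% of all genes were lower without overlap. Signs turned for Aldoc (0.0181 after GC correction, alone or with the replicate block; 0.0666, 0.00452, 0.00557 and 0.0197 without control replicate 2, 3, 4 or mutant-labelled replicate 1), Gata6 (0.00756 after GC correction, alone or with the replicate block), Sucla2 (0.0029 without control replicate 1), Pfkp (0.00642 without mutant-labelled replicate 1) and Mib1 (-0.00926 without both pools lacking Xist). With 1 library left out, Aldoc ran from -0.157 to 0.0666, Pfkp from -0.142 to 0.00642 and Sucla2 from -0.128 to 0.0029. edgeR and DESeq2 were planned and not run. Depth limits Aldoc most.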
